A study of Mus musculus with 8 samples.

Results

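Cartpt encodes the precursor of the CART peptides (cocaine- and amphetamine-regulated transcript), and its row was followed through both sorts of a single-cell RNA study of mouse frontal isocortex at postnatal day 7. The row is 1 gene of 17836 in the table of the D1Tom sort and of 15769 in the table of the GTE sort, which list 18141 genes between them. Cartpt was chosen because its level in upper-layer cells of the D1Tom sort differed between control and knockout libraries. Its values in that sort are therefore a description and carry no test.

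The D1Tom sort collected cells with the fluorescent reporter Drd1a-tdTomato (a BAC transgene, line 6), and the GTE sort collected cells with golli-τ-eGFP. Each sort had 2 control and 2 conditional knockout (cKO) libraries, 8 in all. D1Tom controls were Drd1a-tdTomato; Foxp2 flox/flox and the cKO were Drd1a-tdTomato; Emx1-Cre; Foxp2 flox/flox. GTE controls were golli-T-eGFP, as the genotype label spells the reporter, with Foxp2 flox/flox, and the GTE cKO carried Emx1-Cre as well. All 4 groups thus carried floxed Foxp2, the controls had no Cre, and no group with Cre and unfloxed Foxp2 entered. Emx1-Cre acts in the progenitors of cortical excitatory neurons and glia, and GABAergic neurons of the cortex mostly come from outside that lineage. In D1Tom the cKO 2 library came from a male and the other 3 from females, and in GTE the cKO 2 library came from a female and the other 3 from males. D1Tom control 1 and cKO 1 were prepared on a different day from control 2 and cKO 2. Whether a library held cells of 1 animal or of several is not given in the sources used here, so p-values measure the spread between these libraries.

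CART precursor is cut by prohormone convertases in the secretory pathway and its peptides are stored in dense-core granules and released from neurons. The peptides are known for roles in feeding, reward and stress, and transcription of the gene responds to cAMP through a CREB site in its promoter.

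In the GENCODE M21 annotation of GRCm38.p6, the build named in the submitters' processing notes, Cartpt (ENSMUSG00000021647.7) lies on the minus strand at chr13:99898489-99901091. It has 2 annotated transcripts of 3 exons each, with 387 coding bases in Cartpt-201 and 348 in Cartpt-202, and no other annotated gene overlaps it. The libraries capture transcripts near the 3′ end, so the transcripts were not told apart. The RefSeq promoter window of the gene (GRCm38.p6) holds the full palindromic CREB site. It is shown because genes of the cAMP and CREB pathway were among those followed, with the 8 bases of the site in capitals.

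Cartpt, chr13:99900777-99900806, minus strand: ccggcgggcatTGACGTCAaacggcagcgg

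The motif TGACGTCA, searched on both strands in the 250 bases before the RefSeq start, was found once in Cartpt, 112 to 105 bases before that start, and in 1.55% of 32851 promoter windows. The site lies within the longer first exon that GENCODE gives to Cartpt-202. The forkhead motif TGTTTAC had no match in the Cartpt window and a match in 3.17% of the windows, and a match or its lack says nothing about binding.

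The D1Tom libraries held 2395 to 3206 cells with medians of 7198 to 12815 counts per cell, and the GTE libraries held 1440 to 3948 cells with medians of 1085.5 to 2982. Of the barcodes, 97 in D1Tom and 63 in GTE occurred in more than 1 library. Each cell was put in a class by the number of distinct marker genes detected, from fixed marker lists that hold neither Cartpt nor Foxp2. Foxp2 checked the labels of D1Tom. In its layer 6 corticothalamic cells Foxp2 stood at 157 and 130 counts per 1000000 counts (CPM) in the control libraries. The cKO libraries had 19.4 and 32.1 CPM. Over all GTE cells Foxp2 stood at 9.52 and 46.9 CPM in control libraries against 25.4 and 7.43 in cKO libraries. Those groups overlapped, so Foxp2 did not check the GTE labels. The upper-layer class needed at least 3 of the upper-layer markers. Its 694 cells had excitatory markers, with a count of Slc17a7 in 76.2%, and Gad1 in 5.76%. Its cells had a median of 4 or 5 upper-layer markers per library, but also 3 layer 6 and 2 layer 5 markers, and 21.3 to 26.1% of them sat exactly at the limit of 3. Aqp4, an astrocyte gene, had a count in 23.2% of upper-layer cells, and the part of free RNA in these counts was not tested.

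Over all D1Tom cells Cartpt stood at 13.1 CPM in control 1 and 12.7 in control 2, whereas cKO 1 had 25.1 and cKO 2 had 10.8. The groups overlapped, with cKO 1 highest and cKO 2 lowest. A count was seen in 3.34% and 7.01% of control cells and in 6.12% and 5.10% of cKO cells.

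The Cartpt level was higher over the excitatory classes together than over all cells in each D1Tom library. In the controls these classes held 338 of 476 and 208 of 455 Cartpt counts. They held 483 of 741 in cKO 1 and 69 of 296 in cKO 2. Upper-layer cells were 8.61% and 10.2% of the control libraries and held 58.0% and 36.0% of all Cartpt counts in them. They held 5700581 of 36379194 counts of all genes in control 1 and 4371907 of 35967174 in control 2. That was a larger part than their share of cells. In cKO 1 they were 4.52% of cells with 47.1% of the counts, and in cKO 2 they were 1.49% of cells with 10.8%. In cKO 2 cells classed as astrocytes made up 59.6% of the library and held 40.9% of its Cartpt counts. A single cell with 35 counts gave 28.9% of those astrocyte counts.

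In upper-layer cells Cartpt stood at 48.4 CPM in control 1 and 37.5 in control 2, and at 111.5 CPM in cKO 1 and 49.9 in cKO 2. The control mean was 43.0 CPM ± 7.71 (SD, n = 2) and the cKO mean 80.7 ± 43.6 (SD, n = 2), a difference of 0.91 on the log2 scale. The cKO libraries lay above the controls, in a contrast that chose the gene and in which 0% of the 11292 other genes tested were called. The cKO 2 library exceeded control 1 by less than the controls differed from each other. Without cKO 1 the log2 difference of the means was 0.22. Within the preparation days, cKO was 2.30 times control on the first and 1.33 times on the second. The cKO 2 value rests on 46 cells and 32 Cartpt counts.

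The share of upper-layer cells with a Cartpt count was 13.4% in control 1 (95% exact binomial interval 9.62 to 18.0) and 13.5% in control 2 (9.46 to 18.4). It was 29.9% in cKO 1 (22.1 to 38.7) and 19.6% in cKO 2 (9.36 to 33.9). The intervals cover counting error only, and that of cKO 2 spans both controls. Median depth of these cells was 23012.5 and 18254 counts for controls against 25657 and 16318 for cKO. After every cell was thinned to 1000 counts, the shares were 3.64% and 3.03% for controls against 9.86% and 4.23% for cKO, and no upper-layer cell was too shallow to be thinned. The cKO libraries lay above the controls with and without thinning. Thinned astrocytes had shares of 0.253 to 0.804%, and the part of free RNA in them was not tested. Counts did not behave alike in the libraries: over all cells and genes, values of 2 were 1.69 and 0.723 times as many as values of 1 in control libraries, against 1.54 and 0.307 times in cKO libraries. A limit on counts per cell, or thinning to a fixed number of counts, therefore does not mean the same in each library.

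**Figure D1:**
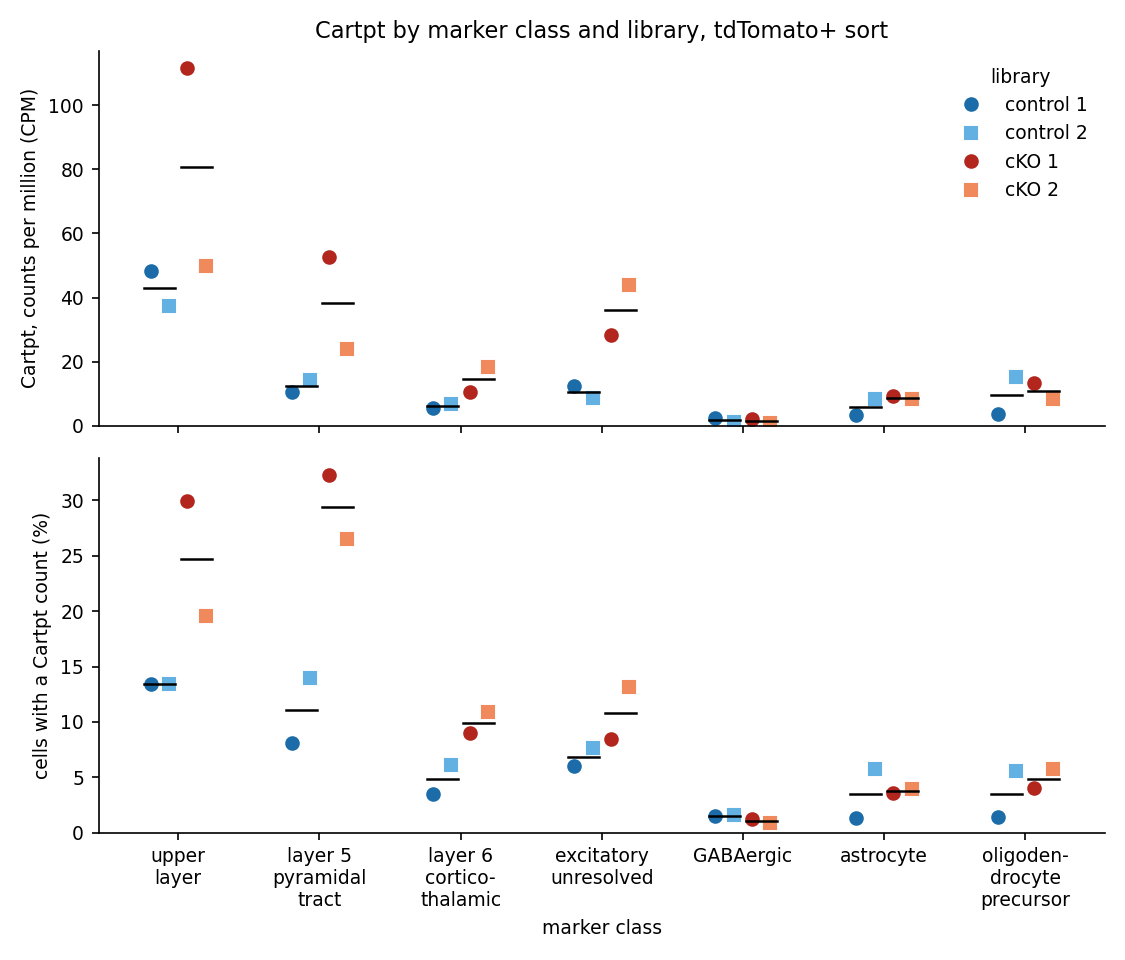
Cartpt in CPM (top) and the percentage of cells with a Cartpt count (bottom) in 7 marker classes of the D1Tom sort, with 1 point per library and a line at the mean of each group of 2 libraries. Upper-layer cells had the highest control levels (48.4 and 37.5 CPM), the cKO points lay above the controls in each of the 4 excitatory classes, and GABAergic cells were at or below 2.27 CPM.

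Few cells carried most of the transcript. Cells with at least 5 Cartpt counts numbered 15 of 276 upper-layer cells in control 1 (5.43%), 9 of 245 in control 2 (3.67%), 20 of 127 in the cKO 1 library (15.7%) and 1 of 46 in the cKO 2 library. Because of the unlike ratios of 2 to 1 counts, a limit on counts does not mean the same in each library. The order of these shares between libraries is therefore description only. The cell with most Cartpt had 63 counts in control 1 and 27 in control 2, whereas cKO 1 had 29 and cKO 2 had 12. That cell gave 22.8% of the upper-layer Cartpt counts in control 1 and 37.5% of those in cKO 2. With that cell left out of each library, an alternative chosen after seeing the data, the levels were 37.6 and 31.5 CPM in control libraries, against 103 and 31.8 CPM in cKO libraries. The cKO 2 library then lay between the controls.

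**Figure D2:**
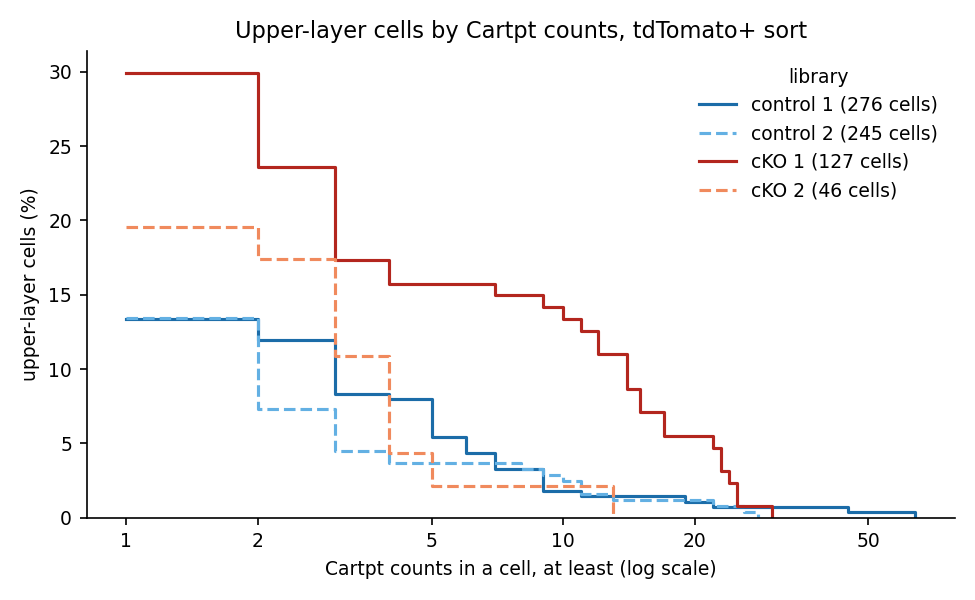
Percentage of D1Tom upper-layer cells (vertical axis) with at least the number of Cartpt counts on the horizontal log axis, with 1 line per library. The cKO 1 line lies above both controls up to 24 counts, whereas the cKO 2 line is above them at 1 to 3 counts and falls below both at 5 counts. From 5 counts to its end at 12 the cKO 2 line rests on 1 cell, and near that end it lies above both controls again.

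Layer 5 pyramidal tract cells, the cortical output neurons that project to brainstem and spinal cord, had a lower Cartpt level than upper-layer cells in every library. It stood at 10.4 CPM in control 1 and 14.1 in control 2, whereas cKO 1 had 52.7 and cKO 2 had 24.0. A count was present in 8.11% and 14.0% of control cells and in 32.3% and 26.5% of cKO cells, over 74, 93, 62 and 34 cells. In upper-layer cells that share was 13.4%, 13.5%, 29.9% and 19.6% in the same order. The layer 5 share was below it in control 1 only. These shares were not thinned, and layer 5 cells had the higher median depth in each library. The cKO libraries lay above the controls in level and in share, with 41.4 and 18.4 CPM left in the cKO without the highest cell of each.

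In layer 6 corticothalamic cells, which project to the thalamus, Cartpt stood at 5.65 and 6.76 CPM in control libraries and 10.6 and 18.3 CPM in cKO libraries. A single cell gave 52.9% of these counts in cKO 1 and 58.3% in cKO 2. Without the highest cell of each library control 2 stood at 3.76 CPM and the cKO libraries at 5.07 and 7.75 CPM. Excitatory cells that no layer list resolved had 12.4 and 8.49 CPM in control libraries, against 28.2 and 43.8 CPM in cKO libraries, from 6 to 26 counts per library. Over the excitatory classes together the levels were 25.2 and 24.0 CPM against 65.5 and 31.8 CPM.

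GABAergic cells had the lowest level of the 7 classes plotted in each library, 2.27 and 1.22 CPM in control libraries against 2.05 and 0.853 CPM in cKO libraries. Only 1 to 4 GABAergic cells per library had a count, 0.901 to 1.63% of the class, at medians of 7932.5 to 12512 counts per cell. Astrocytes stood at 3.34 and 8.42 CPM against 9.16 and 8.31, with a count in 1.34 to 5.75% of cells at medians of 6875 to 10877 counts per cell. Oligodendrocyte precursors stood at 3.72 and 15.3 CPM against 13.2 and 8.31. The groups overlapped in all 3 classes. Layer 6 corticothalamic cells of control 2, at 6.76 CPM, were below its astrocytes and oligodendrocyte precursors, and those of control 1, at 5.65 CPM, were above them. Thinned shares of layer 6 corticothalamic control cells were 0.421 and 0.751%, against 0.253 and 0.804% in astrocytes of the same libraries. Those of cKO cells were 1.16 and 2.59%, against 0.655 and 0.607% in astrocytes. In control 2 the order of upper-layer cells, oligodendrocyte precursors and layer 5 pyramidal tract cells was 37.5, 15.3 and 14.1 CPM, and in control 1 it was 48.4, 3.72 and 10.4. A single cell gave 35.3% of the precursor counts in control 2. Without the highest cell of each class, precursors stood at 9.98 and layer 5 cells at 11.7 CPM there, the same order as in control 1. Below the upper-layer class, the neighbours in the order of levels did not keep their places between libraries.

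Clusters gave another view of the same cells. The cells were also grouped by Leiden clustering with Cartpt and Foxp2 left out, and 3 of 26 D1Tom clusters stood above 20 CPM. Cluster 3 had the highest level pooled over the libraries, 80.6 CPM over 909 cells with a median of 3109 counts. It took no name from the marker lists, Slc18a2, the vesicular monoamine transporter, led its genes, and 586 of its cells were unresolved by marker counts and 102 were in the upper-layer class. Cartpt stood there at 51.5 CPM in control 1 and 102 in control 2, whereas cKO 1 had 113 and cKO 2 had 90.9, so the groups overlapped. Cluster 5, upper layer-like by its markers, had 38.6 and 41.2 CPM in control libraries, against 124 and 104 CPM in cKO libraries. In both cKO libraries cluster 5 stood above cluster 3. The groups did not overlap in cluster 5, and without the highest cell of each library the levels were 27.9 and 35.0 against 113 and 67.3 CPM. In cKO 2 the highest cell of cluster 5, with 35 counts, was the same cell that markers classed as an astrocyte. The 2 groupings thus placed this cell differently. Cluster 16, layer 5 pyramidal tract-like, had 22.4 and 17.7 CPM against 85.6 and 28.0 CPM. A count was present in 17.0% and 20.7% of its control cells and in 42.9% and 29.3% of its cKO cells. Those shares were above the cluster 5 shares of 11.8%, 13.5%, 32.2% and 28.3% in the same order. Cluster 5 held 7.92% and 10.5% of the control cells and 3.20% and 1.72% of the cKO cells, so the upper-layer cells compared were a smaller share of the cKO libraries, and whether their makeup differed was not tested.

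**Figure D3:**
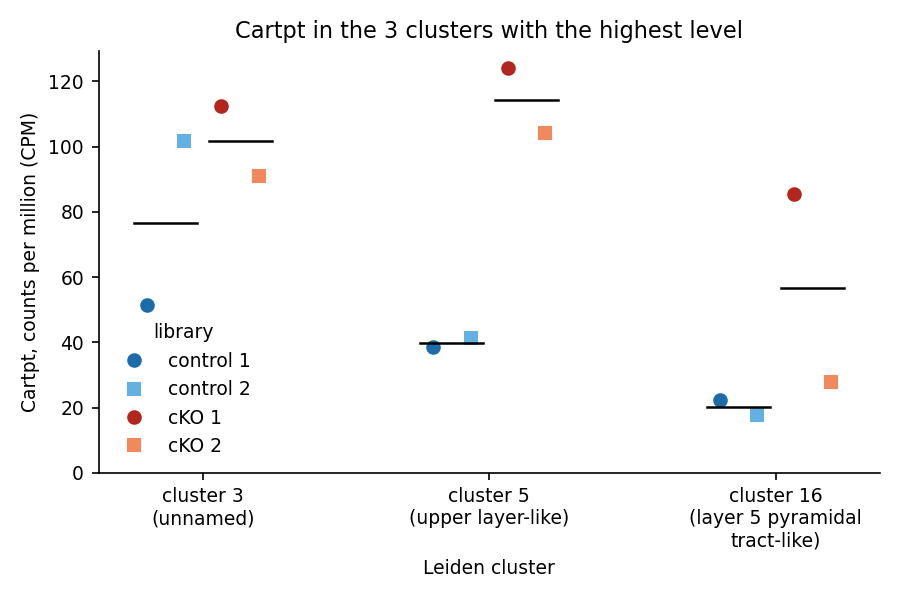
Cartpt in CPM (vertical axis) in the 3 Leiden clusters of the D1Tom sort with the highest level, with 1 point per library and a line at the mean of each group of 2 libraries. In cluster 5 both cKO libraries (124 and 104 CPM) lay above the controls (38.6 and 41.2 CPM), whereas in cluster 3 control 2 (102 CPM) lay between the cKO libraries.

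The GTE sort did not choose the gene, so Cartpt was tested there. Over all GTE cells it stood at 7.39 CPM in control 1 and 6.97 in control 2, whereas cKO 1 had 3.16 and cKO 2 had 1.59, from 45, 34, 16 and 9 counts. The cKO libraries lay below the controls, whereas over all D1Tom cells the groups overlapped. The sorts differed in their cell classes, so these levels are not of like cells. The quasi-likelihood test of edgeR gave a log2 fold change of -2.06 (SE 0.70) and a Benjamini-Hochberg adjusted p of 0.695 over 12042 genes. Of these genes 4 (0.0332%) were called, namely Ctla2a, Cldn5, Slc22a15 and Kif20b, named after their values were seen. The Cartpt difference did not pass the threshold, and adjusted p lay between 0.137 and 1.00 over the alternatives.

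Cartpt-bearing GTE cells were few and at low counts. A count was present in 0.633% and 0.684% of control cells and in 0.486% and 0.205% of cKO cells, and no cell had 5 or more. The upper-layer class had 4 cells in GTE cKO 1, 1 in cKO 2 and none in the controls, so no upper-layer comparison could be made. In GTE astrocytes Cartpt stood at 4.74 and 9.19 CPM in control libraries against 2.71 and 1.75 in cKO libraries. The cKO lay below the controls there, but the values rest on 8 and 17 counts against 6 and 3. A single cell gave 50% of the astrocyte counts in cKO 1 and 66.7% in cKO 2. Unresolved cells made up 82.2% and 65.0% of the GTE controls and 7.64% and 76.1% of the cKO, and GTE cKO 1 had fewer and deeper cells than the other 3; the part of these differences in the Cartpt values was not tested.

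**Figure D4:**
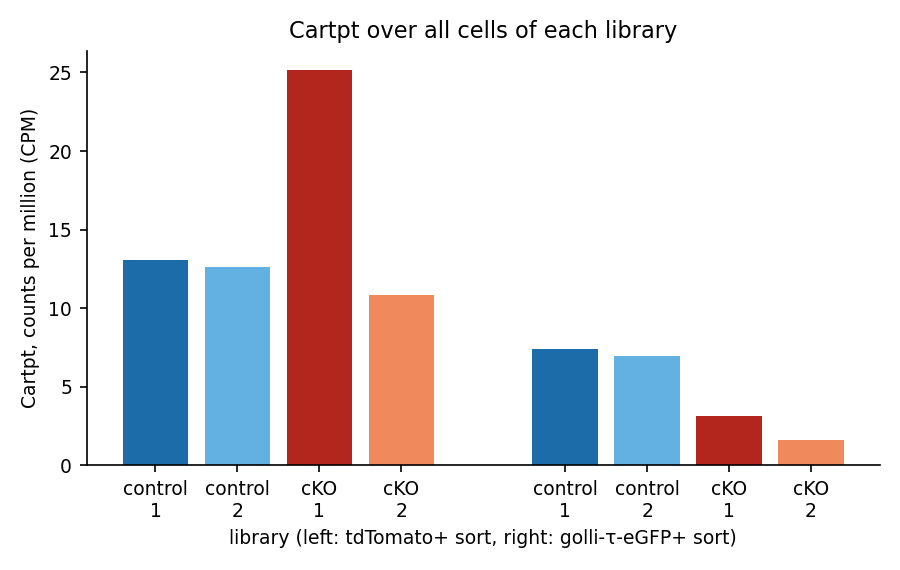
Cartpt in CPM over all cells of each of the 8 libraries, 1 bar per library. In D1Tom (left) the groups overlapped, between 10.8 and 25.1 CPM, and in GTE (right) the cKO libraries (3.16 and 1.59 CPM) lay below the controls (7.39 and 6.97 CPM).

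Other genes of D1Tom upper-layer cells were compared by whether the same cell had a Cartpt count. The positive cells numbered 37 and 33 in the controls, 38 in cKO 1 and 9 in cKO 2, against 239, 212, 89 and 37 negative cells in the same order. Counts were summed by library and status and tested with edgeR with the library as a term, so that each library was its own control. Of 8600 genes, 209 (2.43%) passed an adjusted p of 0.05, 107 higher (1.24%) and 102 lower (1.19%) in Cartpt-positive cells. The direction was the same in all 4 libraries for 197 of the 209. The calls came from these same libraries, so this agreement is no further result.

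Rorb, the nuclear receptor that marks layer 4 neurons, had the smallest p. It stood at 615, 381, 565 and 714 CPM in positive cells of control 1, control 2, cKO 1 and cKO 2, and at 141, 205, 173 and 168 CPM in negative cells. The level was higher in positive than in negative cells of each library, and the log2 fold change was 1.65 (SE 0.13, adjusted p = 2.48e-09). Rorb is itself 1 of the upper-layer markers that define the class. It passed the threshold under all 12 alternatives, including cells of the upper layer-like cluster.

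The other 9 higher genes rose by 0.47 to 2.49 on the log2 scale. Nrgn, the postsynaptic calmodulin-binding protein neurogranin, rose by 0.60 (SE 0.07, adjusted p = 6.10e-06), from 1490, 1437, 1422 and 1468 CPM in negative cells to 1852, 2100, 2801 and 2305 CPM in positive cells of the libraries in the same order. Foxp1, a close relative of Foxp2, rose by 0.73 (SE 0.09, adjusted p = 1.30e-05), with 721, 732, 754 and 593 CPM in positive against 332, 437, 573 and 351 CPM in negative cells. Lpl, lipoprotein lipase, rose by 0.91 (SE 0.12), with 264, 231, 271 and 168 CPM against 167, 124, 103 and 114 CPM. Plcxd2 and Pld5, which belong to phospholipase families, rose by 1.00 (SE 0.13) and 2.49 (SE 0.34). Pld5 was at 4.92 to 9.79 CPM in negative and 20.2 to 60.5 CPM in positive cells. The long noncoding RNA Snhg11 rose by 0.56, Gm10053 by 0.47 and the clone-named genes RP23-35N23.2 and RP23-336M6.2 by 0.77 and 2.01. The rule that named these 10 genes required them to be higher in positive cells of each library, so that agreement is no further result. Each passed in every alternative that tested it, and the alternatives reuse cells of the same libraries.

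The 10 lower genes fell by 0.45 to 1.66 on the log2 scale. Sox11, a factor of newborn neurons, fell by 0.69 on the log2 scale (SE 0.09, adjusted p = 1.59e-05), with 477, 530, 452 and 445 CPM in positive against 987, 835, 606 and 582 CPM in negative cells. Bcl11a, a zinc finger factor of cortical neurons, fell by 0.97 (SE 0.13), with 116, 115, 88.8 and 101 CPM against 198, 184, 237 and 174 CPM. Zbtb20, a zinc finger factor, fell by 1.66 (SE 0.23), with 35.1, 133, 45.0 and 53.9 CPM against 327, 197, 122 and 160 CPM. Id2, an inhibitor of basic helix-loop-helix factors, fell by 1.10 (SE 0.16), and Nfix, a nuclear factor I protein, by 0.63 (SE 0.10). The remaining genes were Eif1b, which fell by 0.69, Acat2, which fell by 0.97, Ptma, which fell by 0.45, Enc1, which fell by 0.70, and AC103620.3, which fell by 1.27. The same rule required these 10 genes to be lower in positive cells of each library. Acat2 lost the call among cells with 5000 to 20000 counts, where its adjusted p was 0.496, and Zbtb20 in DESeq2, where it was 0.150. The other 8 passed in all 12 alternatives.

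**Figure D5:**
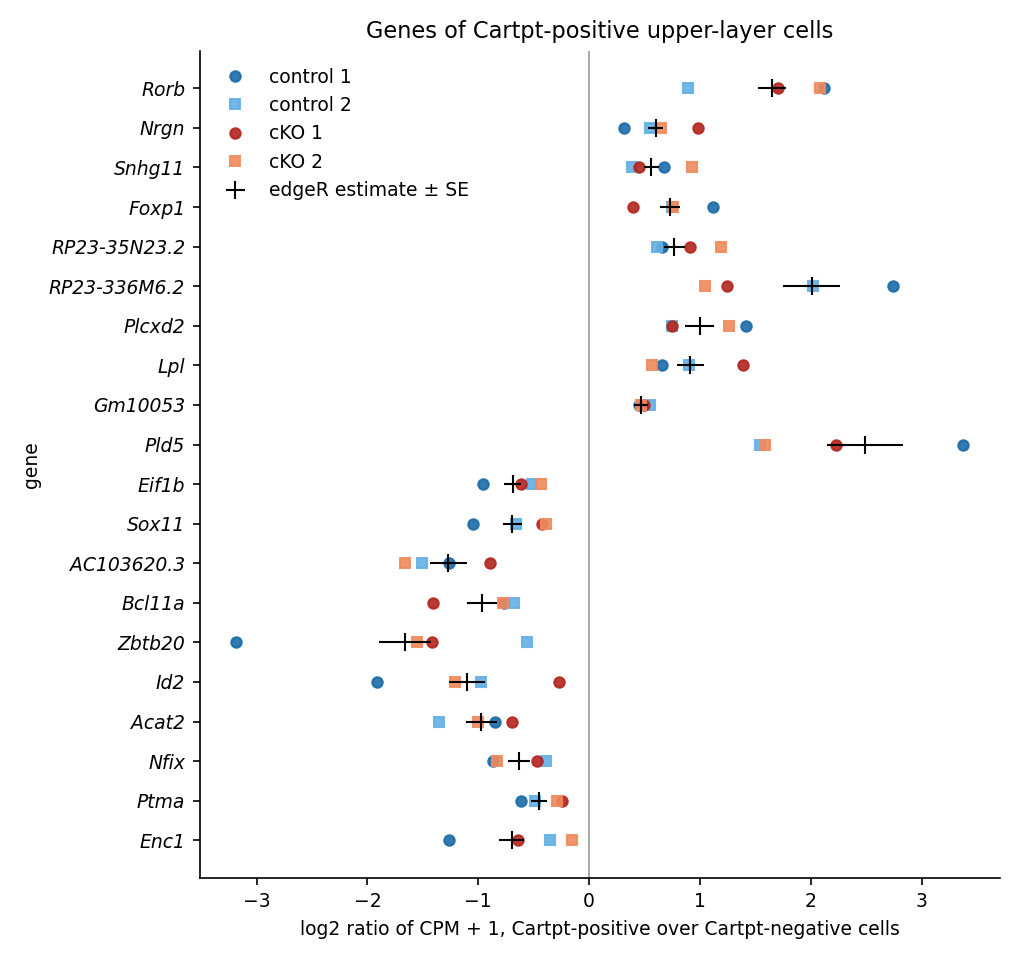
Log2 ratio of CPM + 1 in Cartpt-positive over Cartpt-negative upper-layer cells (horizontal axis) for the 10 higher and 10 lower genes with the smallest p and one direction in all 4 libraries. Coloured points are libraries and black crosses are the edgeR estimate ± SE. By that choice every point of the upper 10 genes lies right of 0 and every point of the lower 10 genes lies left of it.

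Median depths of positive and negative cells were 26279 and 22491 counts in control 1, 17894 and 18348 in control 2, 24362 and 26806 in cKO 1 and 17081 and 16064 in cKO 2. Among cells with 5000 to 20000 counts 76 genes were called, and 179 of the 209 genes could be tested there, all with the same sign. Without control 1, 87 genes were called, 76 of them from the 209. Whether these differences between positive and negative cells differed between control and cKO was not tested.

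The peptide pathway was described by gene lists in 3 comparisons. For prohormone processing and secretory granules, 15 of 16 genes were tested in positive against negative cells, 1 rose and 0 fell, with a median log2 difference of 0.09 against 0.00 over all genes tested. Over all genes tested in this comparison 1.24% rose and 1.19% fell. The 1 gene was Cadps2, which primes dense-core vesicles for release, and it rose by 0.90 (SE 0.20, adjusted p = 0.00818), with 77.4, 52.3, 64.5 and 33.7 CPM in positive against 32.4, 29.6, 39.8 and 20.3 CPM in negative cells. It passed in 9 of 12 alternatives and missed the threshold in DESeq2 (adjusted p = 0.139), among cells with 5000 to 20000 counts (0.221) and without control 1 (0.181). Pam, the enzyme that amidates peptides, had a log2 difference of -0.89 (SE 0.28, adjusted p = 0.0984). Of other neuropeptide precursors only 3 of 16 could be tested and none was called.

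Of the 4 layer 4 genes tested, 1 rose in Cartpt-positive cells and the median difference was 0.85. That gene was Rorb, a marker of the class as well, beside 1.24% of all genes that rose. Plxnd1, a semaphorin receptor, had a log2 difference of 0.53 (adjusted p = 0.0663). Of the 9 layer 2 and 3 genes tested none was called, and their median was -0.17. Of the 15 cAMP and CREB pathway genes tested none was called, with a median of -0.09. Prkar2b, a regulatory subunit of protein kinase A, came closest with -0.44 (SE 0.12, adjusted p = 0.0501). Of the immediate early genes, 4 were tested and none was called.

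Between control and cKO, no gene of 11292 (0%) was called in D1Tom upper-layer cells, with 379 at an unadjusted p under 0.05 in edgeR and 1 call by DESeq2, Sfxn1, named after its values were seen. With the preparation day as a block edgeR called 57 (0.505%), 32 higher and 25 lower. Cux2, the upper-layer homeobox gene, stood at 146 and 111 CPM in control libraries against 65.5 and 92.0 CPM in cKO libraries. Its log2 fold change was -0.80 (SE 0.22, adjusted p = 1.00), and with the block it was -0.84 (SE 0.17, adjusted p = 3.23e-04). Cux2 is also a marker that defines the class. Fos stood at 34.2 and 5.72 CPM against 10.2 and 6.23 CPM, so the groups overlapped, and adjusted p was 1.00, or 0.00268 with the block. Without control 1 the log2 fold change of Fos was 0.60, in the other direction.

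No other member of the 6 lists was called in upper-layer cells, with or without the block. Of the 16 genes of prohormone processing and secretory granules 14 had positive and 2 negative fold changes, with a median of 0.17 against 0.01 over all genes. Pam stood at 50.7 and 49.9 CPM in control libraries and 22.7 and 49.9 CPM in cKO libraries, so that only cKO 1 was lower (log2 fold change -0.74, adjusted p = 1.00). All 5 layer 4 genes tested had positive fold changes, with a median of 0.38, and Rorb stood at 209 and 229 against 282 and 295 CPM (log2 fold change 0.38, SE 0.16, adjusted p = 1.00). The layer 2 and 3 genes had a median of -0.14. The cAMP and CREB pathway genes were split 8 and 8, with a median of 0.00.

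Over all D1Tom cells no gene of 14507 (0%) was called, with 320 at an unadjusted p under 0.05, 25 calls by DESeq2 and 1 with the block (0.00689%), mt-Co2, which is in none of the lists and was named after its values were seen. Of 15 other neuropeptide precursors tested, 3 had positive and 12 negative fold changes, none was called, and the median was -0.29 against -0.01 over all genes. Cort, the precursor of cortistatin and 1 of the 3, stood at 2.58 and 3.39 CPM for controls against 9.56 and 5.12 CPM for cKO (log2 fold change 1.33, SE 0.35, adjusted p = 0.998). Cux2 stood at 46.3 and 45.9 against 32.1 and 31.1 CPM (-0.48, adjusted p = 0.998). Of the 10 immediate early genes 9 had negative fold changes, with a median of -1.03 against -0.01 over all genes. Control 1 stood apart in these genes: Fos was at 539 CPM in it, 53.7 in control 2, and 61.9 and 50.8 in the cKO. Without control 1, 6 of the 10 had negative fold changes, with a median of -0.03, an alternative set beside the list after seeing the data. Junb stood at 92.5 and 25.6 CPM for controls against 20.3 and 14.5 CPM for cKO, with control 1 far above the rest (adjusted p = 0.998).

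Across 16 sums, those of 4 excitatory classes in 4 libraries, Rorb had the pattern most like Cartpt, with a Pearson r of 0.85 on log2(CPM + 1). Next came Gabra4, a GABA-A receptor subunit, with 0.84, Cxx1a with 0.81, Phactr2 with 0.80, Camk2a with 0.79, Vstm2l with 0.78, the syntaxin Stx1a with 0.78, Tcte2 with 0.77, the sodium channel gene Scn1a with 0.76 and RP23-47M24.3 with 0.76. The sums share libraries and depth, and the order carries no test. Rorb is also a marker that defines the upper-layer class, so its r is partly set by the way the classes were made. In the 8 control sums alone, 0 of these 10 genes were among the 10 with the highest r, although Rorb kept an r of 0.85 there.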

How the data were processed

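UMI counts of genes in single cells were deposited by the authors as 1 table per sort, with cell metadata. Per the submitters' processing notes, the tools were bcl2fastq 2.17.1.14, Cell Ranger 2.1.1, UMI-tools 0.5.4, STAR 2.5.2b, Subread 1.6.2 and SAMtools 1.6, with builds mm10 and GRCm38.p6. Cartpt and the gene lists were chosen with earlier results of these data known.

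Cells took the broad class, then the layer, with the largest share of markers detected, at least 3. Levels are CPM of counts summed per class and library. Sums were tested with edgeR 4.0.16 (quasi-likelihood, TMM, default filter, Benjamini-Hochberg over all genes, threshold 0.05). The scripts were tested on simulated data. All cells were kept, doublets included. Clusters used 2000 genes, 30 components, 20 neighbours and leidenalg 0.10.2. Likeness used genes of at least 5 CPM on average.

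D1Tom replicate numbers share a preparation day in the labels, and same-numbered libraries deviated together (correlation 0.500 over all cells, 0.193 in upper-layer cells). Named genes were the 10 higher and 10 lower in Cartpt-positive cells by smallest p among calls with 1 direction in all 4 libraries, the 10 with highest r, and list members by smallest p. Alternatives were DESeq2 1.42.0, no filter, the block, 2 or 4 markers, Leiden clusters, depth, thinning and leaving out each library.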

Additional observations from a re-analysis of the deposited data

How the results depend on the processing

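The cKO-over-control log2 ratio of Cartpt levels in D1Tom upper-layer cells was 0.91 and lay between 0.22 and 1.38 when each library was left out, lowest without cKO 1. For the share of positive cells the ratio was 1.08 and lay between 0.34 and 1.56. The level ratio was 1.52 in the upper layer-like cluster, above that range, and between 0.79 and 1.06 with 2 or 4 markers needed or without the highest cell. The share ratio was between 0.88 and 1.11 with other thinning, none, or 2 or more counts needed. Thinning to 5000 counts, no thinning and leaving out the highest cell were chosen after seeing the data. The limits on depth and doublet scores removed no upper-layer cell, so they could not move the ratio. Counts of called genes over all D1Tom cells were 0, against 25 by DESeq2, 1 with the replicate block and 0 to 6 leaving out libraries. In upper-layer cells they were 0, against 1 by DESeq2, 28 with no filter, 57 with the replicate block and 1 to 17 leaving out libraries. For Cartpt-positive against negative cells they were 209, against 79 by DESeq2, 76 at 5000 to 20000 counts, 527 in the upper layer-like cluster (chosen after seeing the data) and 87 to 199 leaving out libraries. Of the 10 genes most like Cartpt, 0 were shared with control libraries only and 3 with non-neuronal classes added. In upper-layer cells the log2 fold change lay between -1.91 and 0.60 for Fos and between -1.21 and 0.033 for Pam when each library was left out, and reversed without control 1 for Fos and without cKO 1 for Pam. GTE calls were 4, against 18 with no filter, 1 to 27 leaving out libraries (most without cKO 2), 0 with the replicate block and 24 with crossed numbers, a pairing tried after seeing the data since same-numbered libraries deviated in opposite ways (-0.348). The block gave GTE Cartpt a log2 fold change of -2.06 and changed no call in it. No more than 45 Cartpt counts were seen per GTE library. These libraries were shallower than those of D1Tom and held 8 to 36 excitatory cells each, and the part of either was not tested.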
